A study of Mus musculus with 6 samples.

Results

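Acyl-CoA synthetases and fatty acid transport proteins were followed in the fat of mice with a lipodystrophy caused by nuclear SREBP-1c. The set was fixed by name as 9 genes, the long-chain acyl-CoA synthetase genes Acsl1, Acsl3, Acsl4, Acsl5 and Acsl6 and the fatty acid transport protein genes Slc27a1, Slc27a2, Slc27a3 and Slc27a4. Its members are the probe sets paired with 1 of these gene symbols and no other in the platform annotation, which gave 14 of 45101 probe sets, for 8 of the 9 genes. No probe set is paired with Acsl1 in the annotation used, so Acsl1 was not analysed here.

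The arrays measured the epididymal white fat of 3 male aP2-nSrebp1c transgenic mice on a C57BL6;SJL background, and 3 wild type males of that background, described as litter-matched, served as controls. All 6 mice were 10 weeks old. The transgene drives nuclear SREBP-1c, which switches on genes of fatty acid synthesis, from the aP2 (Fabp4) promoter, which is active mainly in fat cells and also in some macrophages. Each Affymetrix MOE430v2.0 array took the RNA of a single mouse, which leaves 3 mice per group to set the error of any comparison.

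A long-chain fatty acid enters metabolism only after it has been joined to coenzyme A. The Acsl enzymes carry out this step on the endoplasmic reticulum, on mitochondria and on lipid droplets, and the isoforms differ in their location and in the fatty acids they prefer. The Slc27a proteins, also called FATPs, take part in fatty acid uptake and most of them are themselves acyl-CoA synthetases. In white fat the acyl-CoA made in this way is used chiefly for triglyceride. SREBP-1c is known to bind sterol regulatory elements, often near sites for NF-Y (the CCAAT box) and Sp1 (the GC box).

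The windows before the start sites of the 3 genes whose probe sets rose (Acsl3, Acsl4 and Acsl5) and of Slc27a3, which was lower in every transgenic mouse, are shown as context for these changes. They hold the 250 bases before a RefSeq start site on GRCm38.p6, written 5′ to 3′ on the strand of the gene. Capitals mark the CCAAT box (CCAAT) and the GC box (GGGCGG), each searched on both strands. The window of Acsl3 lies at chr1:78657575-78657824 on the plus strand, that of Acsl4 at chrX:142390536-142390785 on the minus strand, that of Acsl5 at chr19:55253119-55253368 on the plus strand and that of Slc27a3 at chr3:90389939-90390188 on the minus strand.
Acsl3: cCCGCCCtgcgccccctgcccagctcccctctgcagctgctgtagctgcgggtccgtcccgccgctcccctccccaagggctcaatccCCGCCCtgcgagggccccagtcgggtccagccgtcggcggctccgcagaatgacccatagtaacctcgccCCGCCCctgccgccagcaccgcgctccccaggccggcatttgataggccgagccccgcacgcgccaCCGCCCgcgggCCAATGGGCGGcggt
Acsl4: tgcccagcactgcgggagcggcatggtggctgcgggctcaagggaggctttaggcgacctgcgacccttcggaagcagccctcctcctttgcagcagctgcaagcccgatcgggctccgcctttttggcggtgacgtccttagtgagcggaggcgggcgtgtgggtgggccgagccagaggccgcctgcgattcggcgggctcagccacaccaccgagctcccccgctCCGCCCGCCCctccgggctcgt
Acsl5: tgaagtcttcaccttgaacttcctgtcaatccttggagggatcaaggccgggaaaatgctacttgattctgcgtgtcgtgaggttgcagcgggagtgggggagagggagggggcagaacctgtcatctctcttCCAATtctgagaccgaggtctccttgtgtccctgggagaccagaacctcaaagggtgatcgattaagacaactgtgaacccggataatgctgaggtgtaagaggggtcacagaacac
Slc27a3: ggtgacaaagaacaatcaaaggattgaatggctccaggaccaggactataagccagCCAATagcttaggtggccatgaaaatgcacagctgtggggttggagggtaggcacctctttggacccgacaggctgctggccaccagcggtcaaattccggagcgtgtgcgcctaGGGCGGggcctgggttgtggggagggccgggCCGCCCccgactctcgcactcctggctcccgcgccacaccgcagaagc

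The Acsl3 window holds 5 GC boxes and 1 CCAAT box. The CCAAT box lies 15 to 11 bases before the start site, directly next to a GC box 10 to 5 bases before it. The Acsl4 window holds 2 overlapping GC boxes, 22 to 17 and 18 to 13 bases before the start, and the Acsl5 window holds 1 CCAAT box, 117 to 113 bases before it. The Slc27a3 window holds 1 CCAAT box and 2 GC boxes. Both motifs are common: of 32851 RefSeq windows of this length, 33.8% hold CCAAT and 32.7% hold GGGCGG. A sterol regulatory element, searched as TCACNCCAC on both strands, matched in 1.05% of all windows and in none of the 4 shown. Among the 14 windows of the 9 genes it matched in 1, which belongs to Acsl1. The E-box CACGTG matched in 6.02% of all windows and in 1 of the 14, which belongs to Slc27a1. A match in letters is a description of the window and not a binding site, and no match says only that these letters are not in it.

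One array stood apart in RNA quality. For transgenic replicate 2 the ratio of 3′ to 5′ beta-actin signal was 122, where the remaining 5 arrays had 1.11 to 1.81, and its median signal was 37.7, where they had 53.4 to 65.4. The Pcx control split the arrays in another way, with a 3′ to 5′ ratio of about 3.1 in transgenic replicate 1 (3.10) and wild type replicate 3 (3.06) and of 14.1 to 52.0 on the other 4. Changes of the tested probe sets are given with and without transgenic replicate 2, and log2 differences within the low and the high Pcx class are given beside them. Fat cell markers were present in every mouse, with a summed signal of 16329 (transgenic replicate 2) to 31969 in transgenic and 49518 to 54181 in wild type fat over 6 of 8 listed genes. Of these 6, Lep (−3.74 on the log2 scale) and Adipoq (−0.93) fell over all arrays, and 4 fell without transgenic replicate 2. The part of this in the changes below was not tested.

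**Figure D1:**
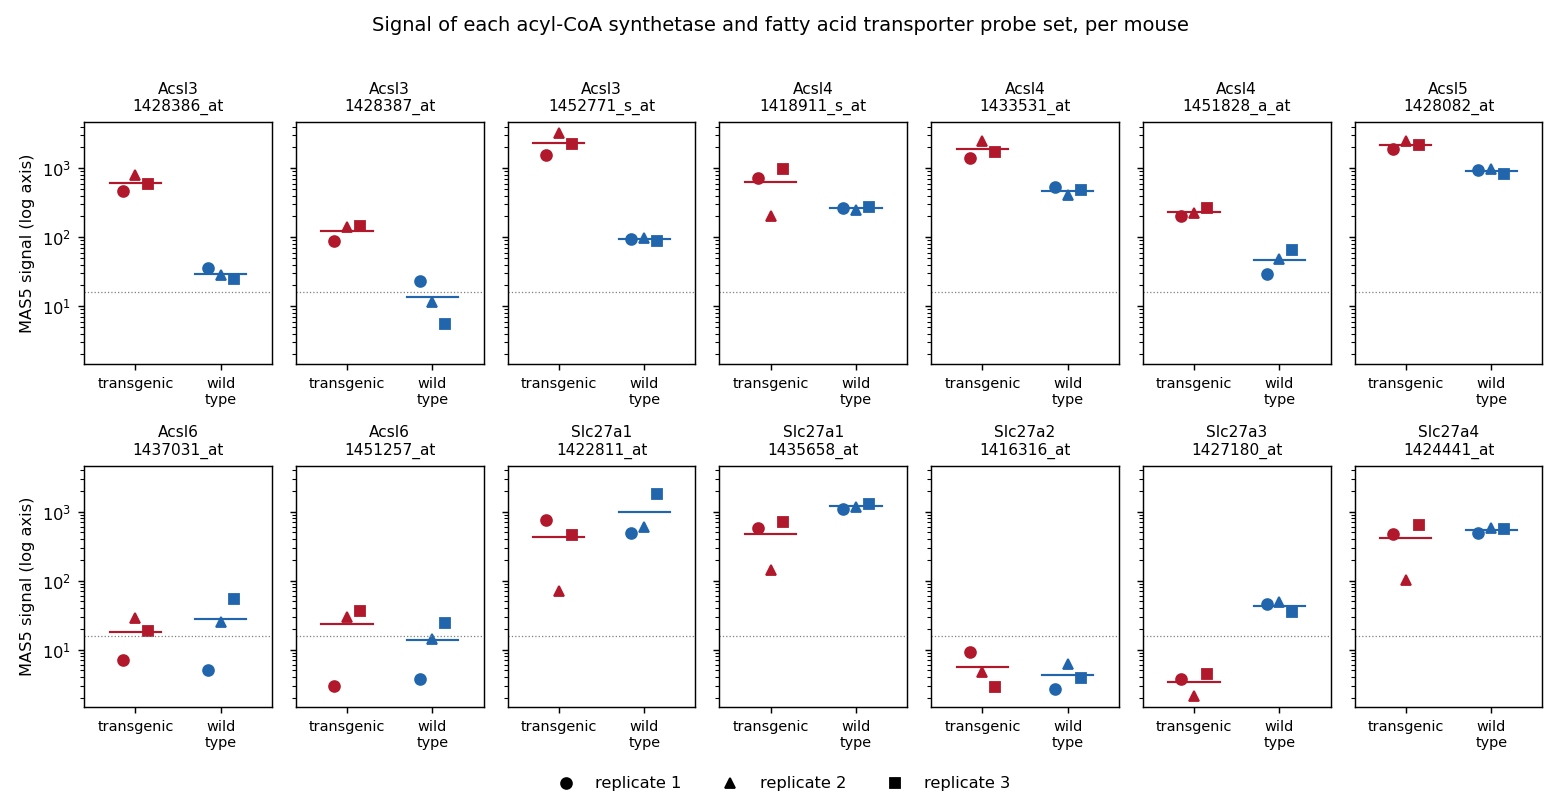
MAS5 signal (linear intensity, drawn on a log axis) of the 14 probe sets in each mouse, transgenic in red and wild type in blue, with horizontal lines at the group means (n = 3 each) and a dotted line at 16, the offset added before the logarithm. All transgenic mice lie above all wild type mice for the 3 Acsl3 probe sets, 2 of 3 Acsl4 probe sets and Acsl5, and below them for Slc27a3 and for 1 of 2 Slc27a1 probe sets.

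The question put to these arrays was which of these isoforms differ in RNA level in this lipodystrophy. Acsl3, Acsl4 and Acsl5 rose, and Acsl3 by far more than the other 2 (about 20-fold, 3.81-fold and 2.34-fold by their brightest probe sets). No Slc27a probe set rose. Slc27a3 was very dim in transgenic fat, 1 probe set of Slc27a1 was lower in every transgenic mouse, and Slc27a4 did not pass the test. Of the 14 probe sets 10 passed the filter on low signals, and of these 6 rose, none (0) fell and 4 did not pass an adjusted p of 0.05 in limma. The filter is set on the mean over all arrays, so a probe set dim in 1 group can pass through the other. Acsl3 1428387_at, dim in wild type fat, passed it, and Slc27a3, dim in transgenic fat, missed it. With the lowest 60% left out 5 of 9 rose and none (0) fell (436 and 327 of all 18015 probe sets). Without the filter 6 of 14 rose and 1 fell (381 and 316 of all 45037). Among the 10, at an unadjusted p of 0.05 there was 1 lower probe set, of Slc27a1, where 8.66% of all tested probe sets were lower. Over all 27023 tested probe sets 1.67% rose and 1.30% fell. The groups did not overlap in 7 of the 10, 6 above and 1 below, where 11.9% of all tested probe sets lay wholly above and 15.3% wholly below. The median log2 fold change of the 10 was 1.58, against −0.09 over all tested probe sets. Acsl3, Acsl4 and Slc27a1 each have several of the 10 probe sets, so these counts and this median are not over separate genes. By their brightest probe sets the 5 tested genes had 4.36 (Acsl3), 1.93 (Acsl4), 1.23 (Acsl5), −1.55 (Slc27a1) and −0.71 (Slc27a4). The median over all tested probe sets was 0.03 after quantile normalization.

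Without transgenic replicate 2 the 10 probe sets gave 7 that rose and 1 that fell, against 6.96% and 6.23% of all tested probe sets. The number that rose was 2 without transgenic replicate 3 (0.599% of all tested probe sets), 3 without wild type replicate 1 (0.437%), 2 without wild type replicate 2 (0.337%) and 2 without wild type replicate 3 (0.440%). Calls over all probe sets were thus also fewer in these fits. Only Acsl3 was called in each of those 4 fits. As genes, each taken by its brightest tested probe set, 3 of 5 tested members passed the threshold, where 2.23% of 13112 genes rose and 1.54% fell.

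Acsl3 encodes an acyl-CoA synthetase of the endoplasmic reticulum and of nascent lipid droplets. Its brightest probe set, 1452771_s_at, had signals of 1553.7, 3224.9 and 2218 in transgenic replicates 1, 2 and 3, against 95.5, 96.7 and 89.3 in wild type replicates 1, 2 and 3. Wild type mice differed little among themselves, and the lowest transgenic mouse was far above all of them. The group means were 2332 ± 841 in transgenic and 93.8 ± 4.0 in wild type fat (SD, n = 3 each), and the log2 fold change of signal + 16 was 4.36 ± 0.31 SE (20.5-fold, adjusted p = 0.00201). Without transgenic replicate 2, the highest of the 6 arrays, it was 4.09 ± 0.21 (17.1-fold, adjusted p = 5.41e-06). A name ending in _s_at marks a probe set whose probes may also match other transcripts.

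The other Acsl3 probe sets rose too. Probe set 1428386_at had 471.1, 792.8 and 580.9 in transgenic fat, against 35.4, 28.6 and 24.8 in wild type fat (3.77 ± 0.27 SE, 13.6-fold, adjusted p = 0.00197). The dimmer 1428387_at had 89.5, 139.5 and 143.1 in transgenic fat, against 23.5, 11.5 and 5.5 in wild type fat, where 2 of 3 signals lay under the offset of 16 and the size of the change (2.27 ± 0.31 SE, adjusted p = 0.0143) depends on that offset. All 3 Acsl3 probe sets put the transgenic mice wholly above the wild type mice. The 2 brighter ones passed the threshold whichever array was left out, with adjusted p of up to 0.0260 for 1452771_s_at and 0.0287 for 1428386_at. With transgenic replicate 2 left out the log2 fold change was 3.57 ± 0.22 for 1428386_at (adjusted p = 1.4e-05) and 2.18 ± 0.34 for 1428387_at (adjusted p = 0.00285). The dim one had 0.0691, 0.1 and 0.0804 without transgenic replicate 3 and wild type replicates 2 and 3. It passed the filter through its transgenic signals and was not tested with the lowest 60% left out. Within the 2 classes of Pcx ratio the log2 difference of 1452771_s_at was 3.90 in the low class (1 mouse of each group) and 4.59 in the high class (2 of each). It was 3.58 and 3.86 for 1428386_at and 2.29 and 2.25 for 1428387_at.

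Acsl4 encodes a synthetase that prefers arachidonic acid and other polyunsaturated fatty acids. Its brightest probe set, 1433531_at, had signals of 1385.6, 2505.1 and 1737.5 in transgenic replicates 1, 2 and 3, against 525.4, 402.3 and 478.4 in wild type replicates 1, 2 and 3. The lowest transgenic signal was more than double the highest wild type one (log2 fold change 1.93 ± 0.29 SE, 3.81-fold, adjusted p = 0.0196). Probe set 1451828_a_at had 205.2, 221 and 268.5 in transgenic fat, against 29.3, 48.3 and 64.6 in wild type fat, again without overlap (2.0 ± 0.28 SE, adjusted p = 0.0163).

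The third Acsl4 probe set, 1418911_s_at, split the transgenic mice. Its signal was 723.9 and 981.6 in transgenic replicates 1 and 3 but 204.8 in transgenic replicate 2, against 268.4, 247.5 and 273.4 in wild type fat. The low value came from the array with the high beta-actin ratio, on which the other 2 Acsl4 probe sets read 2505.1 and 221, above every wild type mouse. Over all 6 arrays the change of 1418911_s_at was 0.97 ± 0.55 SE (adjusted p = 0.440). When that array was left out all 3 probe sets rose, by 1.62 ± 0.20 (adjusted p = 0.000700) for 1418911_s_at, 1.70 ± 0.19 (0.000488) for 1433531_at and 2.02 ± 0.28 (0.00149) for 1451828_a_at. The other 2 passed the threshold over all arrays but not in every fit with an array left out. Leaving out transgenic replicate 3 or wild type replicate 1, 2 or 3 gave an adjusted p of 0.0753, 0.101, 0.137 and 0.117 for 1433531_at, and of 0.0731, 0.0887, 0.111 and 0.0536 for 1451828_a_at. The log2 fold changes in these 4 fits were 1.83 to 2.01 for 1433531_at and 1.77 to 2.19 for 1451828_a_at. In the low and high Pcx classes they were 1.503 and 2.143 for 1433531_at, 1.46 and 2.27 for 1451828_a_at, and 1.35 and 0.78 for 1418911_s_at (1.87 in the high class without transgenic replicate 2). With a term for the replicate number in the model (the replicate block) the adjusted p was 0.0872 for 1433531_at and 0.0388 for 1451828_a_at.

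Acsl5 encodes a synthetase found on mitochondria and the endoplasmic reticulum, prominent in intestine and liver. Its only probe set, 1428082_at, had signals of 1870.5, 2459.2 and 2154.1 in transgenic fat, against 929.9, 987.1 and 812.4 in wild type fat. The groups did not overlap, and the transgenic mean was 2161 ± 294 and the wild type mean 910 ± 89.1 (SD, n = 3 each). The log2 fold change was 1.23 ± 0.21 SE (2.34-fold, adjusted p = 0.0333). With transgenic replicate 2 left out it was 1.13 ± 0.17, with an adjusted p of 0.00226. The call was lost without transgenic replicate 3 (adjusted p = 0.106) and without wild type replicate 1, 2 or 3 (0.177, 0.179 and 0.197). It was also lost after centring the arrays on their medians (adjusted p = 0.0981) and with the replicate block (0.163). The log2 differences within the low and high Pcx classes were 1.19 and 1.25.

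Acsl6, the isoform best known from brain, was dim. Its 2 probe sets had 7.1, 28.8 and 18.8 (1437031_at) and 3, 30.1 and 36.5 (1451257_at) in transgenic fat, against 5.1, 25 and 54.6 and 3.8, 14.3 and 24 in wild type fat. Both groups spanned the offset of 16 and overlapped, and neither probe set passed the filter on low signals. In a fit without that filter their adjusted p were 0.856 and 0.805. Their log2 differences changed sign between the Pcx classes, with −1.61 in the low and 0.42 in the high class for 1437031_at and −1.07 and 1.01 for 1451257_at.

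**Figure D2:**
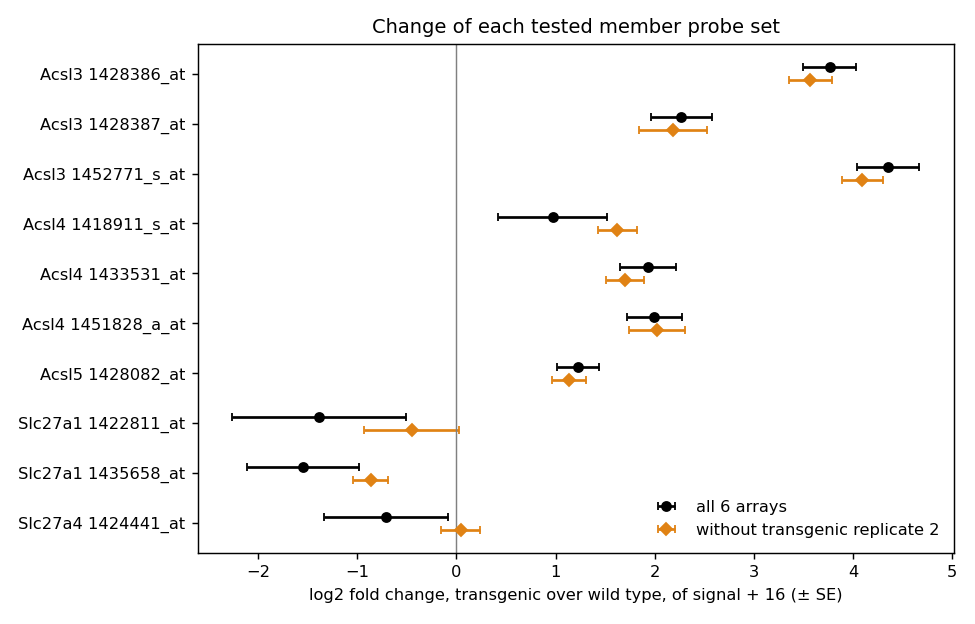
Log2 fold change of signal + 16, transgenic over wild type, with its standard error, for the 10 probe sets that passed the filter on low signals. Black circles use all 6 arrays and orange diamonds leave out transgenic replicate 2; the 3 Acsl3 probe sets lie between 2.27 and 4.36 over all arrays, and the standard errors of Slc27a1, Slc27a4 and Acsl4 1418911_s_at shrink without that array.

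No transport protein gene that passed the filter was called over all 6 arrays. Slc27a1, which encodes FATP1, an insulin-responsive fatty acid transport protein of muscle and fat, is read by 2 probe sets. The brighter, 1435658_at, had signals of 579.1, 144.6 and 714 in transgenic replicates 1, 2 and 3, against 1109.9, 1168.2 and 1287.3 in wild type replicates 1, 2 and 3. Every transgenic mouse was below every wild type mouse, and transgenic replicate 2 was lowest by far. The log2 fold change was −1.55 ± 0.56 SE (adjusted p = 0.241). Without transgenic replicate 2 the probe set fell, by 0.87 on the log2 scale (SE 0.18, 1.82-fold, adjusted p = 0.0113). With array weights, estimated from these same 6 arrays, it was also called (−0.89, adjusted p = 0.0405). That setting gave 3359 calls over all probe sets, against 802 without weights. The other Slc27a1 probe set was not called in it (−0.53, adjusted p = 0.599). The log2 difference of 1435658_at was −1.13 in the low Pcx class and −1.75 in the high class, or −0.66 there with transgenic replicate 3 alone.

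The second Slc27a1 probe set, 1422811_at, had 764.6, 72 and 462 in transgenic fat, against 498.6, 597.9 and 1831 in wild type fat. The groups overlapped, and the brightest mouse of each group was the one in the low Pcx class. Its log2 fold change was −1.38 ± 0.88 SE over all arrays, with an adjusted p of 0.485. With transgenic replicate 2 left out it was −0.45 ± 0.48, with 0.615. Within the Pcx classes it was −1.24 in the low class and −1.45 in the high class, or −0.23 there without transgenic replicate 2. The part of RNA quality in either Slc27a1 value was not tested.

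Slc27a3 encodes a family member with acyl-CoA synthetase activity. Its only probe set, 1427180_at, had signals of 3.7, 2.1 and 4.4 in transgenic fat, against 45.7, 48.6 and 35.4 in wild type fat. All 3 transgenic mice were near the bottom of the scale and all 3 wild type mice were clearly brighter, although still dim. The probe set missed the filter, which is set on the mean over all arrays, so it had no test in the comparison above. A fit without the filter, over 45037 probe sets, put the log2 difference at −1.61 ± 0.19 SE, with an adjusted p of 0.0125. With transgenic replicate 2 left out it was −1.56, with 0.0134. The adjusted p was 0.0522 and 0.0742 without transgenic replicates 1 and 3, and 0.0767, 0.0766 and 0.0555 without wild type replicates 1, 2 and 3. The size depends on the offset, with −3.36 for an offset of 1 and −0.67 for one of 64 (adjusted p = 0.0182 and 0.0142), and without detection calls no bound can be set on it. The Pcx classes gave −1.38 and −1.72. With the replicate block and no filter the adjusted p of Slc27a3 was 0.0880.

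Slc27a4, which encodes FATP4, the main such protein of intestine and skin, had signals of 481.5, 102.9 and 646.7 in transgenic fat, against 493.4, 573.2 and 559.7 in wild type fat (1424441_at). Transgenic replicates 1 and 3 lay on both sides of the wild type mice and only transgenic replicate 2 was far below. Over all arrays this gave −0.71 ± 0.62 SE on the log2 scale, with an adjusted p of 0.599. Leaving that array out gave 0.04 ± 0.20, with 0.919. The difference was −0.21 in the low Pcx class and −0.96 in the high class, or 0.27 there without transgenic replicate 2. Slc27a2, an isoform of liver and kidney, had 9.2, 4.8 and 2.9 in transgenic fat, against 2.7, 6.2 and 3.9 in wild type fat (1416316_at), all under the offset of 16 (adjusted p = 0.841 in the fit without the filter, 0.34 and −0.04 in the low and high Pcx classes).

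The isoforms were then compared with each other on the same array, where a change of the array's overall brightness cancels. Such a difference shows unequal change between isoforms and not which isoform is more abundant, since probe sets differ in their affinity. Of 7 differences planned against Acsl1 and Slc27a1, 1 could be computed, and 3 pairs among Acsl3, Acsl4 and Acsl5 were added after the annotation was seen. Relative to wild type, Acsl3 gained 2.43 ± 0.14 log2 units on Acsl4 (SE, 95% interval 2.04 to 2.81) and 3.13 ± 0.20 on Acsl5 (2.58 to 3.67). Acsl4 gained 0.70 ± 0.21 on Acsl5, with an interval of 0.11 to 1.29. Slc27a4 gained 0.83 ± 0.10 on Slc27a1 (0.55 to 1.11). Each gene was taken by its brightest tested probe set, and other probe sets were not compared in this way. Acsl4 1418911_s_at had a smaller log2 fold change over all arrays (0.97) than Acsl5 (1.23), and for Slc27a1 1422811_at the groups overlapped. Differences with Acsl4 or Slc27a1 thus hold for the probe sets used.

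All 4 differences separated the 3 transgenic from the 3 wild type mice without overlap. With 3 mice in each group the two-sided exact permutation test cannot go below p = 0.1, and each of the 4 had p = 0.1, also after adjustment over the 4. Slc27a4 minus Slc27a1 was −0.26, −0.43 and −0.14 in transgenic replicates 1, 2 and 3, against −1.14, −1.01 and −1.18 in wild type replicates 1, 2 and 3. Transgenic replicate 2, in which the signals of both genes were lowest, thus did not stand apart in their difference. Acsl4 minus Acsl5 was −0.43, 0.03 and −0.31 in transgenic and −0.80, −1.26 and −0.74 in wild type fat, the closest approach of the groups among the 4 pairs.

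**Figure D3:**
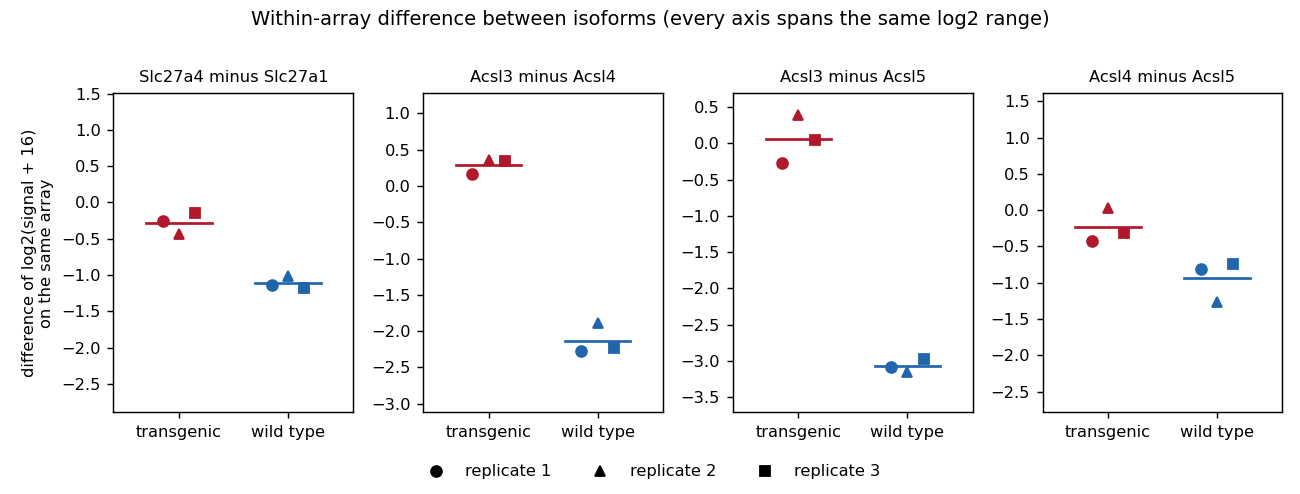
Difference of log2(signal + 16) between 2 genes of a family on the same array, by mouse, with lines at the group means (n = 3 each); every vertical axis spans the same log2 range around its own centre, and the position of the axis itself carries no information on abundance. Each gene is taken by its brightest tested probe set. The groups are separate in each panel, widest for Acsl3 minus Acsl5 (3.13) and narrowest for Acsl4 minus Acsl5 (0.70).

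Genes around the members were followed in 3 lists, beside the 2.23% of all genes that rose and 1.54% that fell over all arrays. Of the other acyl-CoA synthetase genes, 11 of 17 were tested, 1 rose, 1 fell and 9 did not pass, with a median log2 fold change of −0.01 against −0.04 over all 13112 genes. Acss2, which makes acetyl-CoA from acetate and is a known SREBP target, had 4721.1, 4438.1 and 4892.1 in transgenic fat, against 1614.1, 1455.3 and 2535.3 in wild type fat (1.36 ± 0.24 SE, adjusted p = 0.0359). Of its other probe sets 1422478_a_at passed (1.37 ± 0.24 SE, adjusted p = 0.0337) and the dimmer 1446542_at did not (1.16 ± 0.73 SE, adjusted p = 0.483). Acsm3, a mitochondrial synthetase of medium-chain acids, had 5.4, 29.8 and 5.7 in transgenic fat, against 131.4, 175.1 and 248.5 in wild type fat (−2.82 ± 0.38 SE, adjusted p = 0.0143), a size that depends on the offset. Acsm3 passed the filter through its wild type signals and was not tested with the lowest 60% left out. Acss2 lost its call without transgenic replicate 1 or 3 or wild type replicate 1 or 2 (adjusted p of up to 0.187), and Acsm3 without any array but transgenic replicate 2 (up to 0.0931). Leaving out transgenic replicate 2, the list gave 2 that rose and 3 that fell, where 8.04% of all genes rose and 7.33% fell.

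Of 17 tested genes of fatty acid uptake and binding (18 listed), 1 rose, none (0) fell and 16 did not pass, with a median of −0.07. The gene that rose was Fabp3, whose product binds fatty acids in heart. Its representative probe set had 6258.9, 3881.3 and 6387.6 in transgenic fat, against 55.2, 54.2 and 40.6 in wild type fat (6.36 ± 0.29 SE, adjusted p = 0.000803). A second Fabp3 probe set, 1444844_at, had 115.5, 40.1 and 109.6, against 72.7, 60.6 and 83.6, and did not pass (0.15 ± 0.37 SE, adjusted p = 0.857). Acbd6, an acyl-CoA binding protein, had 833.7, 800.6 and 1191.8 in transgenic fat, against 418, 377.3 and 360.2 in wild type fat, without overlap (1.24 ± 0.25 SE, adjusted p = 0.0569). For a second Acbd6 probe set, 1453199_at, the groups overlapped (0.44 ± 0.34 SE, adjusted p = 0.555). The uptake genes Cd36 and Lpl, named after their values were seen, had −0.07 ± 0.14 (adjusted p = 0.837) and −0.0032 ± 0.10 (adjusted p = 0.991) by very bright probe sets, where signals of 8033 to 10493 and 11260 to 12323 in transgenic fat lay close to the highest on the arrays, against 8788 to 10230 and 11295 to 12346 in wild type fat. A dimmer Cd36 probe set, 1450884_at, had 1382, 3167.9 and 1750.3 in transgenic fat, against 3305.5, 2692.3 and 2745.3 in wild type fat (−0.55 ± 0.32 SE, adjusted p = 0.449), and fell by 0.89 on the log2 scale without transgenic replicate 2 (adjusted p = 0.00878). The other probe sets had −0.21 for Cd36 and −0.41 for Lpl, with adjusted p of 0.6003 and 0.4279. At an unadjusted p of 0.05, 3 of the 17 genes were higher and 3 lower, where 9.44% of all genes were higher and 8.95% lower. Without transgenic replicate 2, 2 genes of this list rose and 4 fell, beside 8.04% and 7.33% of all genes.

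Of 30 tested genes that use or split acyl-CoA (34 listed), 7 rose, none (0) fell and 23 did not pass, with a median of 0.35 (12 higher and 2 lower of 30 at an unadjusted p of 0.05, beside the 9.44% and 8.95% of all genes). Acot1, a cytosolic acyl-CoA thioesterase, had 158.5, 241.1 and 321.9 in transgenic fat, against 30.3, 26.2 and 24.6 in wild type fat (2.53 ± 0.29 SE, adjusted p = 0.00761). Acot1 was dim in wild type fat and was not tested with the lowest 60% left out. The elongase genes Elovl3 (2.52 ± 0.49 SE), Elovl6 (1.42 ± 0.23 SE) and Elovl5 (1.29 ± 0.18 SE) had adjusted p of 0.0467, 0.0275 and 0.0157, and Elovl7, which also passed, was named after its values were seen (1.03 ± 0.20 SE). Cpt1a, which commits long-chain acyl-CoA to mitochondrial oxidation, rose by 1.36 ± 0.22 (adjusted p = 0.0263), and Gpam, which starts glycerolipid synthesis from acyl-CoA, by 1.33 ± 0.20 (adjusted p = 0.0223). The count of called genes in this list was 0 without wild type replicate 1, 2 or 3 and 1 without transgenic replicate 3, and 4 with median centring. Calls over all probe sets were also fewer in the fits with these arrays left out (180, 141, 187 and 326, against 802). It was 16 genes of this list without transgenic replicate 2, of which 13 rose and 3 fell, where 8.04% of all genes rose and 7.33% fell.

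**Figure D4:**
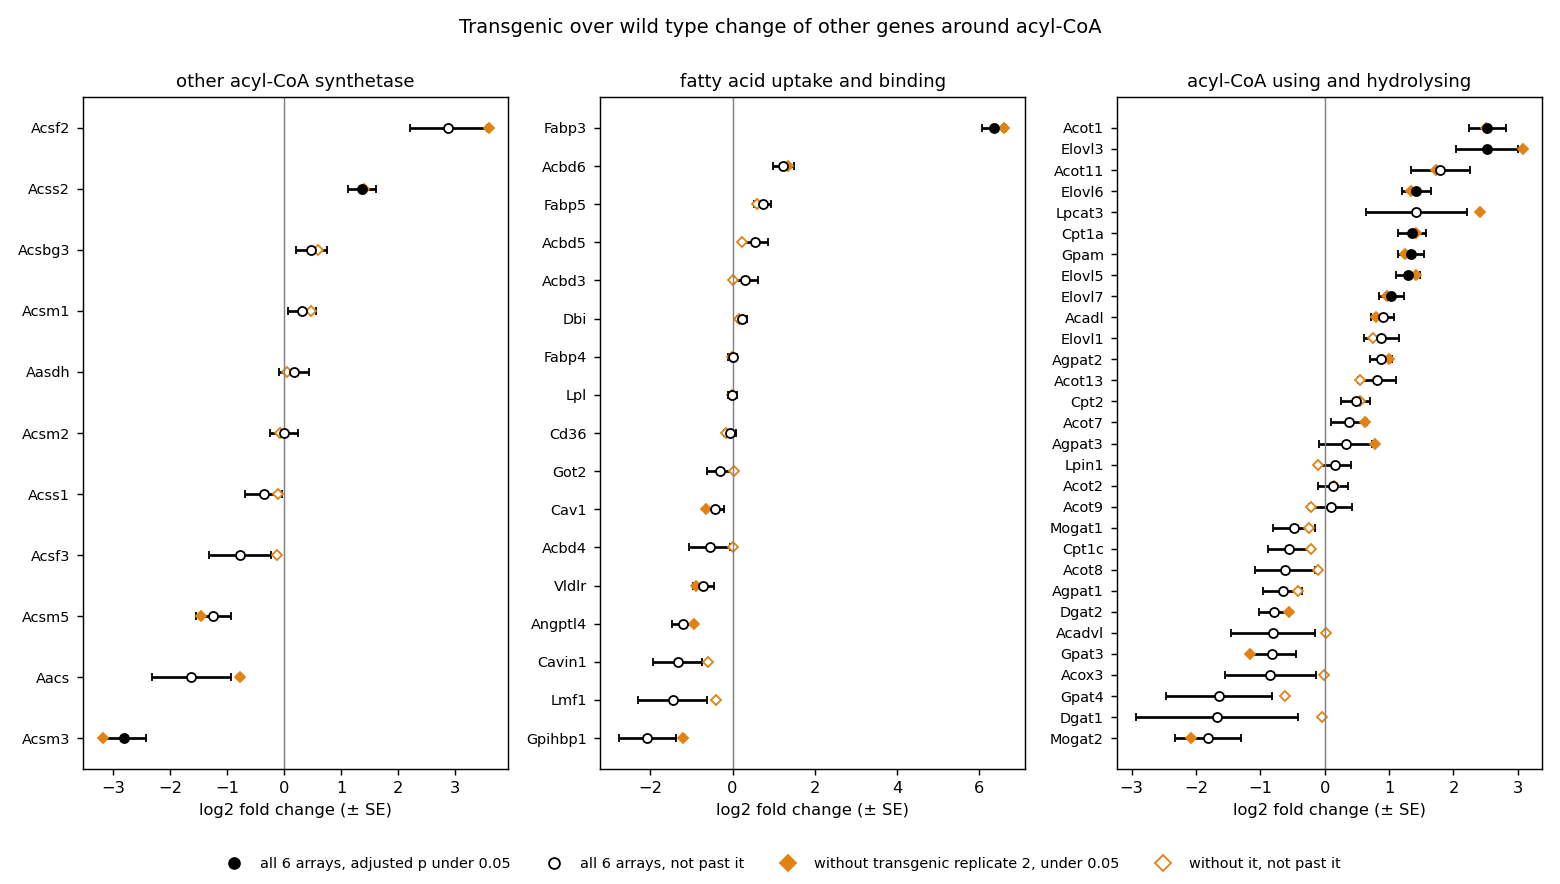
Log2 fold change of signal + 16, transgenic over wild type, with its standard error, of the representative probe set of each tested gene in the 3 lists, ordered by size. Black circles use all 6 arrays and orange diamonds leave out transgenic replicate 2, filled where the adjusted p is under 0.05; Fabp3 (6.36) and Acsm3 (−2.82) have the highest and lowest values among the filled circles.

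The summed signal of markers differed between the groups for some other cell types and overlapped for others. Calls among the markers stand beside the shares over all genes given above. Transgenic replicate 2, the array with the high beta-actin ratio, gave the lowest transgenic sum for brown fat, mesothelium, endothelium, skeletal muscle, stroma and epididymis. For macrophages (24965) and liver (261) its sum was not the lowest. The part of RNA quality in these sums was not tested. The summed signal of 8 macrophage markers was 19914 to 27080 in transgenic and 13268 to 15424 in wild type fat, with 0 of 8 past the threshold over all arrays and 4 higher without transgenic replicate 2. That of 7 brown fat markers was 4430 to 5863 in transgenic and 727 to 1134 in wild type fat. Most of the transgenic sum was Cox8b (4615.7, 4034.9 and 3571, against 690.2, 436.3 and 324.5 in wild type fat). Cox8b and Elovl3 were higher, and Ucp1, the defining marker, was between 2.5 and 7.1 on all 6 arrays. Cidea, Ppargc1a, Cox7a1 and Dio2 did not pass over all arrays (adjusted p = 0.734, 0.755, 0.475 and 0.658). Of these, Cidea was higher without transgenic replicate 2. Mesothelial markers summed to 520 to 1721 in transgenic and 4324 to 5034 in wild type fat, with 2 of 5 lower. Endothelial markers summed to 1552 to 4156 in transgenic and 5197 to 5752 in wild type fat. For skeletal muscle the sums were 164 to 362 and 509 to 1205. The sums of the groups overlapped for stroma (11907 to 19580 and 15093 to 17401), liver and epididymis. Fewer cells of a type and less RNA per cell cannot be told apart in whole fat, and the part of these markers in the changes of the Acsl and Slc27a genes was not tested. Srebf1 itself rose by 1.08 ± 0.19 (adjusted p = 0.0342, and up to 0.188 with 1 array left out), and it was not tested whether this signal includes transgene RNA.

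Over the 6 arrays the representative probe set of Acsl3 was most like those of Mup3, Aldh9a1, Cxcl2, Tcaf2 and Slc9a3r1, with Pearson's r of log2(signal + 16) between 0.9976 and 0.9995. That of Acsl4 was most like those of Grk3, B4galt6, Lonrf3, Dhrs7 and Abcd3, with r between 0.9975 and 0.9995. These values describe 6 points that share the split into groups, and 426 and 499 of 13111 other genes had an r over 0.95 with Acsl3 and Acsl4.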

How the data were processed

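Epididymal fat RNA of 3 transgenic and 3 wild type mice was measured on 1-colour Affymetrix arrays. The deposited values are linear intensity values, the MAS5 signal of each probe set, computed by the authors per the submitters' processing notes. Which MAS5 version and scaling target they used, and any detection calls, is not given here. There were 0 columns of other samples. Probe sets were named through the platform annotation, in which 34958 of 45101 have 1 gene, 932 several and 9211 none.

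In R 4.3.3 with limma 3.58.1, log2(signal + 16) was tested without further normalization, after leaving out 64 control probe sets and the 40% with the lowest mean over all 6 arrays. The model had a term for the group alone (4 residual degrees of freedom) and was fitted by lmFit and eBayes with a mean-variance trend. Two-sided p-values were adjusted by Benjamini-Hochberg over 27023 probe sets (threshold 0.05). Standard errors of fold changes are moderated, and fold changes of dim genes are understated. Among the tested probe sets of a gene, the one with the highest mean stands for it. Promoter windows are from RefSeq (GRCm38.p6). The script was tested on simulated data. Figures were drawn in Python 3.11.15 with matplotlib 3.10.9.

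The members, gene lists and tests were chosen with earlier results of these data known. All 9 genes were named with every probe set, together with, from each list, up to 6 called genes with the largest change, or the 2 with the lowest p where fewer than 2 were called, and, for the 2 members with the lowest p, the 5 genes with the highest correlation, and Srebf1. Elovl7, Cd36, Lpl and the markers stand outside this rule. The lists of epididymis, endothelium, skeletal muscle, liver and stroma had 0 genes past the threshold. Without transgenic replicate 2, 3 endothelial and 1 muscle gene were lower. Alternatives were other offsets, filters, normalizations, variance models, array weights, the replicate block and each array left out.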

Additional observations from a re-analysis of the deposited data

How the results depend on the processing

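Of 169 refits of the 10 tested member probe sets, none reversed a direction with a call, and 145 kept the side of the threshold. Array weights gave 3359 calls over all probe sets (802 as reported), and 4, 7 and 18 in the lists of other synthetases, of uptake and of acyl-CoA use (2, 1 and 7 as reported). Quantile normalization without transgenic replicate 2 gave 4973 over all probe sets and 5, 8 and 18 in these lists. Under both settings 1 member probe set, of Slc27a1, was lower (0 as reported), and without the filter 1, of Slc27a3. The synthetase list had 1 without the filter, with 60% left out, without trend and with the mean of all probe sets of a gene. The uptake list had 2 with 60% left out, 3 after quantile normalization and 2 without trend. The list of acyl-CoA use had 4 after median centring. The cause of these shifts was not tested.

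With 1 array left out the counts ran from 141 to 3565 over all probe sets, 2 to 7 for member probe sets that rose, 0 to 1 for those that fell, 1 to 4 for member genes, and 0 to 5, 1 to 6 and 0 to 16 in the 3 lists. An offset of 64 lowered Acsl3 minus Acsl4 to 2.03 and Acsl3 minus Acsl5 to 2.68. Median centring cannot change a within-array difference and was not run for them.

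Whether the replicate numbers follow litters is not given here. Deviations of same-numbered arrays correlated with r = −0.37, 0.09 and −0.05. The highest r of any pair was 0.45, between transgenic replicate 1 and wild type replicate 3, the arrays of the low Pcx class. With 3 mice per group such correlations cannot decide whether the mice are paired. With the replicate block 341 probe sets, 1 member gene by its brightest probe set (Acsl3) and 1 gene of acyl-CoA use were called. The number of arrays and the lack of detection calls limit what dim probe sets (Acsl6, Slc27a2, Slc27a3) can show.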
